A study of Mus musculus with 10 samples.

Results

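The genes of the cytosolic ribosomal proteins were examined in the LV of young mice under pressure overload. Members were all genes whose symbol follows the standard pattern of ribosomal protein names (Rpl or Rps with a number, an ending a or x where it has one, the stalk proteins Rplp0 to Rplp2, and Rpsa), with Rpl3 left out. The rule found 75 genes among the 55401 in the tables, and all 75 passed the filter of a mean FPKM of at least 1, beside 11867 genes that passed it in all. There were 45 members of the large subunit and 30 of the small subunit. The LV came from 5 WT mice after nAAC, in which the ascending aorta is banded in the newborn, and from 5 WT mice after sham surgery, all at 4 weeks of age, with 1 library per mouse. The paper states that WT mice for its in vivo experiments came from AHR+/- parents on a C57BL/6 background. It does not say this of the sequenced mice in particular. Pups of either sex were allotted at random, with no sex given for a library. No label says that mice of equal number belong together. FPKM is a level per length of transcript and per depth of library, so it can be compared between genes, and a log2 FC below is the nAAC mean minus the sham mean of log2(FPKM + 1).

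The cytosolic ribosome makes nearly all of the protein of a cell, and in the hypertrophic heart its production is a long known part of cell growth. Each ribosome holds 1 copy of nearly every ribosomal protein, apart from the acidic stalk proteins. Ribosomal protein mRNAs start with a stretch of pyrimidines, the TOP motif, through which mTOR and Larp1 control their translation, so that output can change with no change of the mRNA. The genes are scattered over the genome, and here the members lay on 19 chromosomes, with 14 on chromosome 7, 7 on chromosome 11 and 4 on X. Most have processed pseudogenes, which are near-identical copies of its mRNA.

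Promoter sequences show what the members share besides their products. They are given for 5 members that the results below turn on, from 100 bases before to the first 30 bases of the transcript, as RefSeq places its start on GRCm38.p6, read 5′ to 3′ on the transcribed strand. Rpl38 and Rpl41 were among the members that stood highest in nAAC, Rps25 and Rps27 among those that stood lowest, and Rpl10 was 1 of 3 that passed the test. They lie at chr11:114668480-114668609 (plus strand), chr10:128549139-128549268 (minus), chr9:44407614-44407743 (plus), chr3:90213619-90213748 (minus) and chrX:74270716-74270845 (plus). Capitals mark matches to the 4 words spelled out after the sequences.
Rpl38: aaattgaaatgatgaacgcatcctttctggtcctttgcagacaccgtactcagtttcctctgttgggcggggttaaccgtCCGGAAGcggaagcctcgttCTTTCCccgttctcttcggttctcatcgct
Rpl41: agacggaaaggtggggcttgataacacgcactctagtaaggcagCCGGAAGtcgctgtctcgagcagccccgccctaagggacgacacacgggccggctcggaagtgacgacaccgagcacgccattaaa
Rps25: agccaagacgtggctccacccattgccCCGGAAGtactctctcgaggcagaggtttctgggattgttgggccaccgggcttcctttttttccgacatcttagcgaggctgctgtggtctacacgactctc
Rps27: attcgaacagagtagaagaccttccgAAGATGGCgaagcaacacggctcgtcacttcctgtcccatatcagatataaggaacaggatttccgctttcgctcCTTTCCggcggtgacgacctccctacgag
Rpl10: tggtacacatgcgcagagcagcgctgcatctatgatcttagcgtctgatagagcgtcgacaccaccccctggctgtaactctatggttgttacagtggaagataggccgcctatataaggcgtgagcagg

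Of the members, 56 had a promoter in the RefSeq table. In windows of 300 bases, the pyrimidine run CTTTCC on the transcribed strand was found for 41.1% of them and for 4328 of all 27025 genes. The word CCGGAAG, the core that ETS factors recognize, was found on either strand for 41.1% of members and 9.93% of all genes. AAGATGGC, the core of the YY1 site, was found on either strand for 8.93% and 3.19%, and TATAAA on the transcribed strand for 8.93% and 9.77%. None of these words contains another. In the sequences printed above, the ETS word stands in Rpl38, Rpl41 and Rps25, and the window of Rpl10 holds none of the 4 words. Nothing about binding of a factor follows from a match or its absence.

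In sum, the ribosomal protein mRNAs were more abundant in nAAC LV than in 3 of the 5 sham LV, but not than in the other two, and 3 members passed the test over all mice. Rpl12 and Rpl10 of the large subunit were among them, and all 3 were up-regulated. In all, 3 of 75 members were called (limma, adjusted p below 0.05), while 31.7% of all genes tested were. Upward calls made up 27.1% and downward calls 4.6% of all genes. None of the members called had an absolute log2 FC above 1, a size that 5.91% of all genes passed together with the adjusted p. The fold changes were nonetheless mostly above 0, in 71 members (45 of 45 in the large and 26 of 30 in the small subunit), with a median log2 FC of 0.37 (0.41 in the large and 0.32 in the small subunit), and 13 members had an unadjusted p below 0.05. The median over all genes was 0.22. This general shift depends on how libraries are scaled to each other. Median-ratio scaling by its design sets the median over all genes near 0, here -0.00076. The median of the members was then 0.091, 48 members were above 0, and only Rps27 was called, downward, beside 25.2% of all genes. In TPM the medians of the members and of all genes were 0.54 and 0.38. With GC and length trends removed, which also centers all genes near 0, they were 0.14 and -0.014. In bulk tissue a change in the share of a cell type and a change of the RNA per cell cannot be told apart.

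The level of the whole set was first taken as the FPKM summed over the 75 members. It was 12762, 16938, 15854, 16213 and 14494 in nAAC replicates 1 to 5. It was 10103, 9164, 10102, 20424 and 14479 in sham replicates 1 to 5. Sham replicates 1 to 3 thus lay below every nAAC mouse, sham replicate 5 lay within the nAAC range, and sham replicate 4 lay above all other mice. The means were 15252 ± 1651 (SD, n = 5) and 12854 ± 4709 (SD, n = 5), a ratio of 1.19, or 1.39 without sham replicate 4. The ratio was 0.99 with median-ratio, 1.01 with upper-quartile scaling and 1.33 in TPM, so its direction depended on the scaling. The nAAC mice varied by 1.33 times from lowest to highest and the sham mice by 2.23 times. As a share of all FPKM outside mitochondrial genes, the members made up 3.52% to 4.18% in nAAC and 2.51% to 4.45% in sham mice. The groups overlapped in each of these measures.

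**Figure D1:**
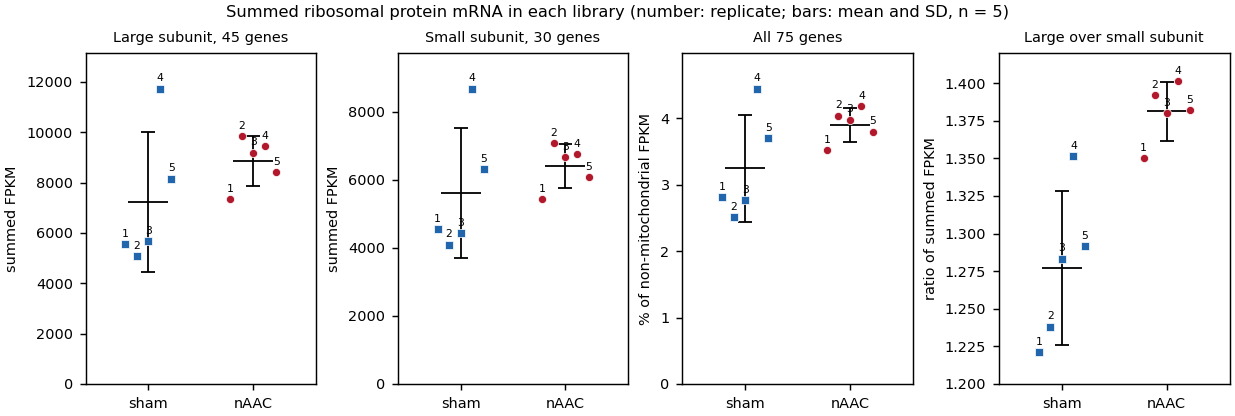
Summed FPKM of the large and small subunit genes, their joint share of non-mitochondrial FPKM in percent, and the ratio of the large to the small subunit sum (axis from 1.2), with 1 point per mouse (number: replicate) and the mean and SD of each group. Sham replicate 4 is the highest of the 10 libraries in the first 3 panels, and sham replicates 1 to 3 lie below every nAAC mouse in all 4.

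Large subunit mRNAs outweighed those of the small subunit by more in nAAC mice. The ratio of the summed FPKM was 1.35, 1.39, 1.38, 1.40 and 1.38 in nAAC replicates 1 to 5. In sham replicates 1 to 5 it was 1.22, 1.24, 1.28, 1.35 and 1.29. Only sham replicate 4, at 1.352, reached past an nAAC mouse, replicate 1 at 1.350. No test was made of this score over members.

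The members moved together from mouse to mouse. Sham replicate 4 was the highest sham mouse in 73 of 75 members and above every nAAC mouse in 58. Sham replicates 1 to 3 were all below every nAAC mouse in 58. Sham replicate 5 lay within the nAAC range in 52, and nAAC replicate 1 was the lowest nAAC mouse in 55. The shares of all genes with these patterns were not taken. In sham replicates 1 to 3 the median deviation of the members from the mean of the libraries was -0.42, -0.64 and -0.48. Over all genes it was -0.18, -0.17 and -0.19. In sham replicate 4 it was 0.59 over members and -0.063 over all genes. The spread among sham mice was accordingly large, with a median SD of 0.58 on the log2 scale over members against 0.22 among nAAC mice, while over all genes the medians were 0.25 and 0.18. Without sham replicate 4 the median sham SD of the members was 0.36.

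**Figure D2:**
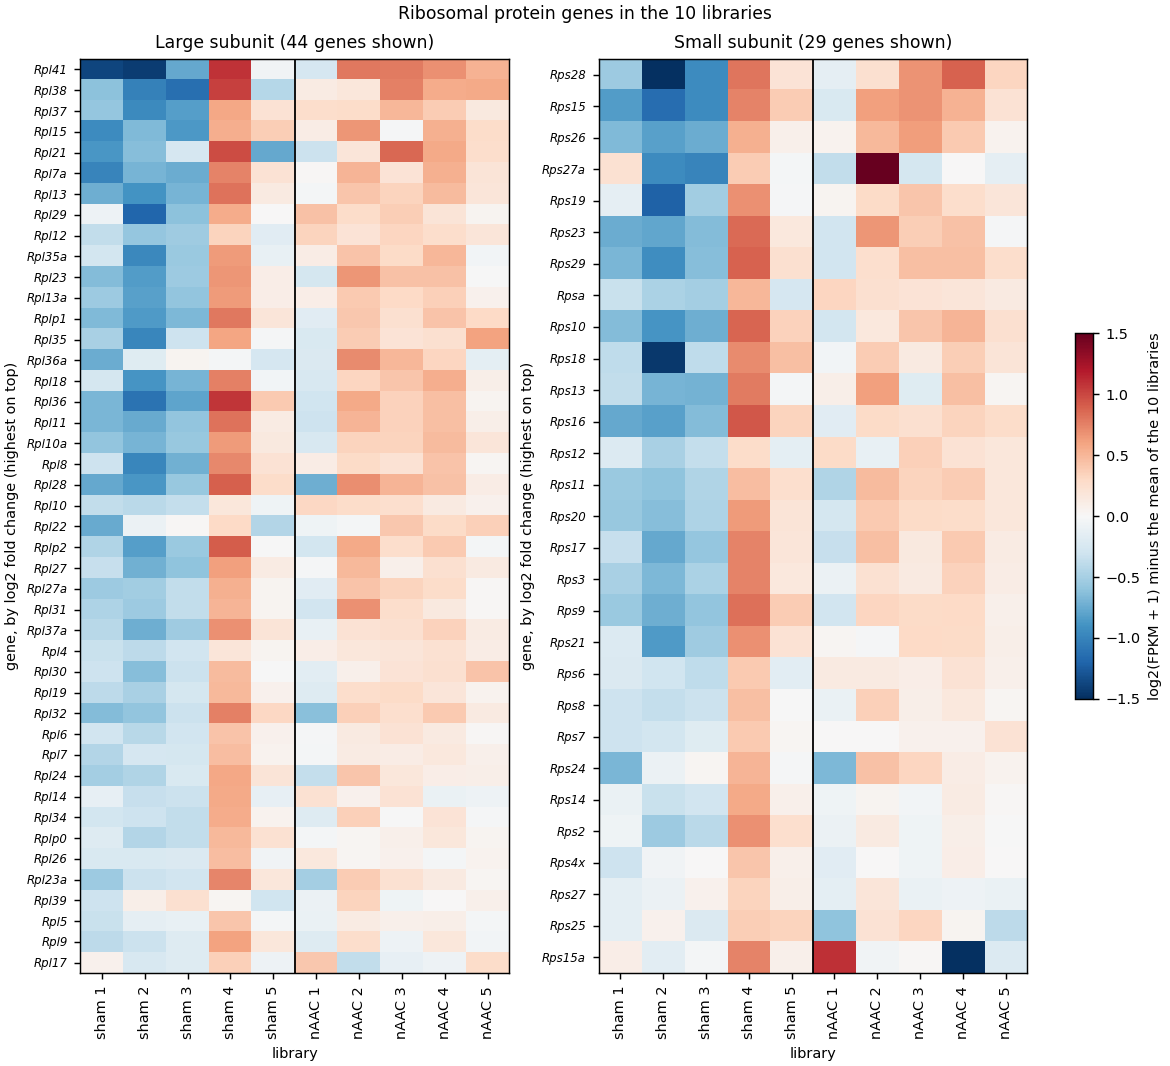
Each row is 1 of 73 members (44 large and 29 small), ordered by log2 fold change from the highest, each column a library, and the color is log2(FPKM + 1) minus its mean over the 10 libraries. The blue columns of sham replicates 1 to 3 and the red column of sham replicate 4 run through most rows of both subunits, while Rps27a and Rps15a have single cells that depart from their rows.

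Without sham replicate 4, 43 of the 75 members were called, all up-regulated, with 28 in the large and 15 in the small subunit. In that fit 38.3% of all genes were called, and 33.2% upward. The median log2 FC of the members was 0.54, that of all genes 0.24, and 72 members were above 0. Of the members, 4 (Rpl41, Rpl38 and Rps28 among them) were called with a log2 FC above 1, as were, in either direction, 6.62% of all genes. The groups did not overlap in 13 members, beside 28.2% of all genes. A single mouse therefore decided the count, and no label sets this mouse apart from the other sham mice. It was singled out for its high levels of these same members. Calls without it, here and below, thus give no independent support for a rise in nAAC.

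Sham replicate 4 differed from the other mice in more than ribosomal protein mRNA. Its cardiomyocyte markers (Myh6, Tnnt2, Tnni3, Actc1, Ryr2 and Pln) summed to 19555 FPKM, against 12439 to 14939 in the other sham and 10579 to 14536 in the nAAC mice. Tnnt2 (5959 FPKM) and Tnni3 (5287), both of the troponin complex, were at their highest in this mouse, while Ryr2, the calcium release channel, was at its lowest of all 10 mice (31.9) and Pln at its lowest of the sham mice (2292). Its mural markers were lowest, at 145 FPKM against 207 to 323 elsewhere. Across genes, its deviation from the mean of the libraries had a Spearman correlation of -0.62 with transcript length, so that short transcripts stood high, while in the other libraries the correlation ran from -0.19 to 0.34. The members are short, with a median mRNA length of 712 bases, taken from the transcript with the longest coding part. For all genes tested the median was 2894.5 bases, taken from the longest protein-coding transcript. That measure can only be as long or longer, so the gap between these medians is overstated. Among the members, the deviation of sham replicate 4 had a Spearman correlation of -0.16 with mRNA length. When the trends on GC content and length were removed from each library, the median deviation of the members in sham replicate 4 was 0.24 in place of 0.59, still the highest, 54 members had a log2 FC above 0, and 7 members were called, among them Rpl38, Rpl12, Rpl10 and Rps26 upward and Rps2 and Rps14 downward. In that fit 30.9% of all genes were called. The part of transcript length in the level of this mouse beyond these values was not tested.

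The share of mitochondrial transcripts and the level of Xist also differed among the mice. Mitochondrial genes took 46.5%, 49.8% and 48.7% of all FPKM in sham replicates 1 to 3, 33.7% and 38.3% in sham replicates 4 and 5, and 32.8% to 39.9% in nAAC mice. Xist, the RNA of the inactive X chromosome of female cells, was at 0.023 FPKM or less in sham replicates 1 to 3 and in nAAC replicate 2. It was at 3.70 in sham replicate 4, at 10.6 in sham replicate 5, and between 14.8 and 17.9 in the other nAAC mice. The 3 sham mice with the lowest sums over the members had the largest mitochondrial shares and no more than traces of Xist, whereas the nAAC mouse with the lowest Xist had the highest sum of its group.

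The sums are given here on either side of 1 FPKM of Xist, a split that was not planned in advance. Among the libraries with Xist at 1 FPKM or more, the members summed to 14831 on average in 4 nAAC and 17452 in 2 sham mice, and 63 of 75 members had the lower mean in nAAC. Of these 2 sham mice replicate 4 had 20424 and replicate 5 had 14479, which is below the nAAC mean. Among those with less, the sum was 16938 in 1 nAAC mouse and 9164 to 10103 in 3 sham mice, and 73 members were higher in the nAAC mouse. In the first subset the median log2 difference, nAAC minus sham, was -0.24 over members and 0.13 over all genes. In the second it was 0.91 over members and 0.27 over all genes. The members moved together in each mouse, so these counts are not of independent genes. The shares of all genes with these directions were not taken. No test was run within these subsets, and with 2 sham mice on one side and 1 nAAC mouse on the other they cannot show whether the difference between the groups varied. With Xist as a covariate limma called none of the members and 16.7% of all genes, 2 members had an unadjusted p below 0.05, and the median log2 FC was 0.17 beside 0.16 for all genes. The part of Xist or of the share of mitochondrial transcripts in the result was not tested further.

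**Figure D3:**
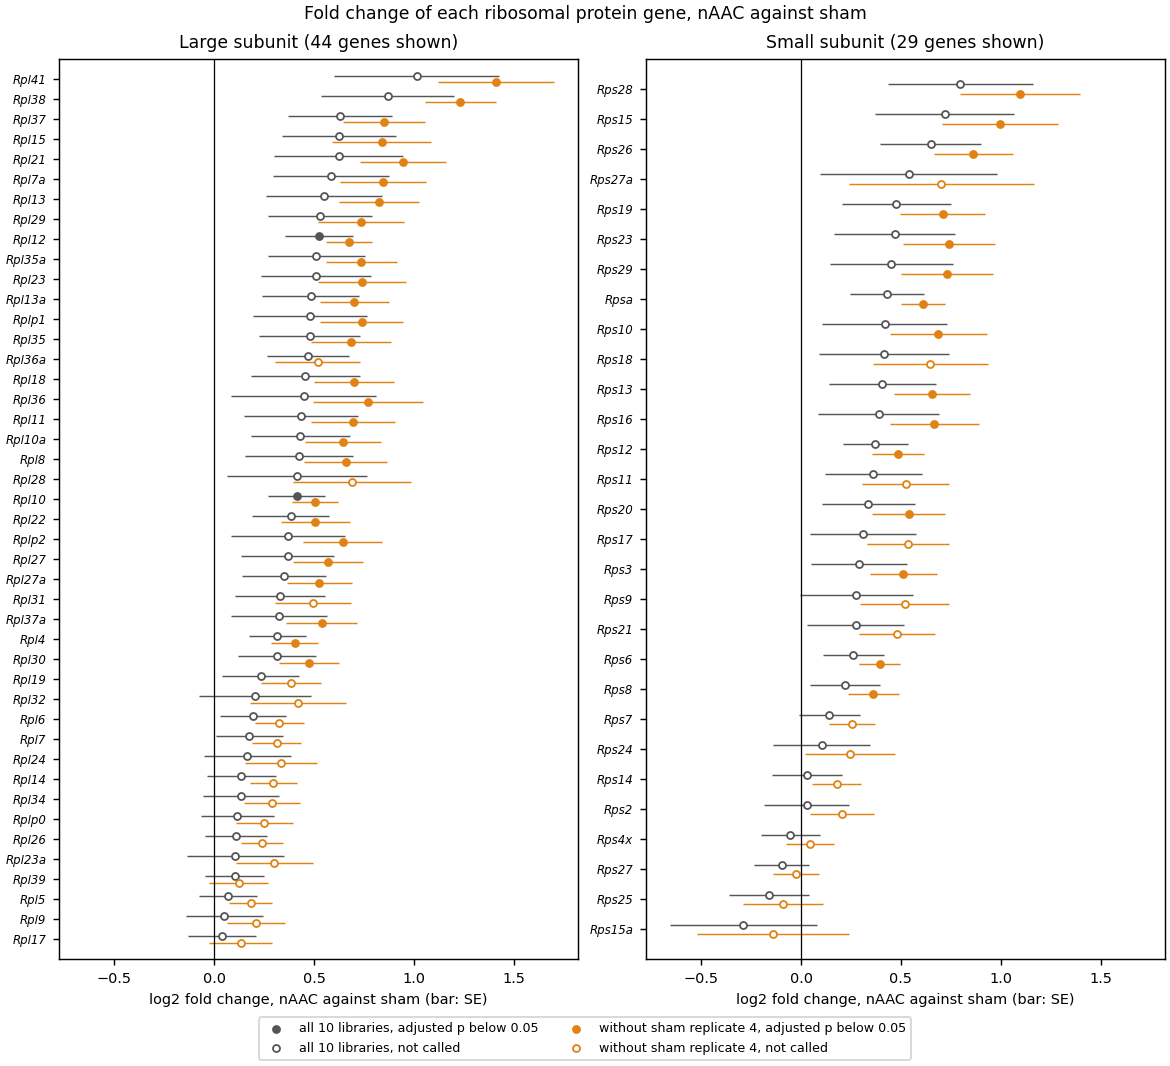
Log2 fold change of 73 members, nAAC against sham, with its SE as a bar, for all 10 libraries (grey) and without sham replicate 4 (orange), filled where the adjusted p of limma was below 0.05. In grey, 2 points are filled, and in orange 42, all of them to the right of 0.

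All nAAC mice lay above or all below all sham mice in 1 of 75 members and in 22.3% of all genes. Rpl12 of the large subunit forms the base of the stalk with Rplp0. Its FPKM was 158, 143, 156, 150 and 141 in nAAC replicates 1 to 5 and 96.3, 82.9, 85.8, 158 and 111 in sham replicates 1 to 5. The nAAC mice lay close together, above 4 sham mice, and sham replicate 4 was level with the highest of them. The log2 FC was 0.52 (SE 0.17, adjusted p = 0.032, limma). Rpl10, an X-linked gene whose protein joins late and completes the site where the subunits and tRNAs meet, had 291, 284, 280, 258 and 246 FPKM in nAAC replicates 1 to 5 and 182, 177, 183, 263 and 224 in sham replicates 1 to 5. Sham replicate 4 overlapped with the 2 lowest nAAC mice. Its log2 FC was 0.41 (SE 0.14, adjusted p = 0.044, limma). With their near-identical copies added, Rpl12 and Rpl10 had adjusted p values of 0.055 and 0.058. As single genes, both lost the call without any 1 of 8 mice, all but sham replicates 4 and 5.

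The highest estimate belonged to Rpl41, the shortest ribosomal protein, which bridges the subunits. It had 177, 365, 363, 340 and 303 FPKM in nAAC replicates 1 to 5 and 80.6, 77.8, 123, 447 and 203 in sham replicates 1 to 5. Here the low nAAC replicate 1 and the high sham replicate 4 crossed, and the log2 FC of 1.01 had an SE of 0.41 (adjusted p = 0.078, limma). Rpl38, known for its part in the translation of Hox mRNAs, had a log2 FC of 0.87 (adjusted p = 0.063), and in the small subunit Rps28 had 0.80 (adjusted p = 0.11), Rps15 0.72 (adjusted p = 0.13) and Rps26 0.65 (adjusted p = 0.066). None of these 5 was called with all mice, and all were without sham replicate 4, with log2 FCs from 0.86 (Rps26) to 1.41 (Rpl41).

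At the other end stood 4 members of the small subunit with estimates below 0. Rps25, which serves the entry of viral and some cellular mRNAs through internal sites, had 138, 244, 263, 216 and 159 FPKM in nAAC replicates 1 to 5 and 189, 218, 180, 269 and 264 in sham replicates 1 to 5, with a log2 FC of -0.16 (adjusted p = 0.56). Rps27 had -0.098 and the X-linked Rps4x -0.053. Rps15a had the lowest estimate, -0.29, with 175, 78.7, 82.5, 26.9 and 70.4 FPKM in nAAC replicates 1 to 5 against 72.9 to 137 in sham mice. The other 2 members with a log2 FC nearest to 0 in the small subunit were Rps2 and Rps14, at 0.029 and 0.031, and the lowest in the large subunit were Rpl17, Rpl9 and Rpl5, at 0.038, 0.052 and 0.069.

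**Figure D4:**
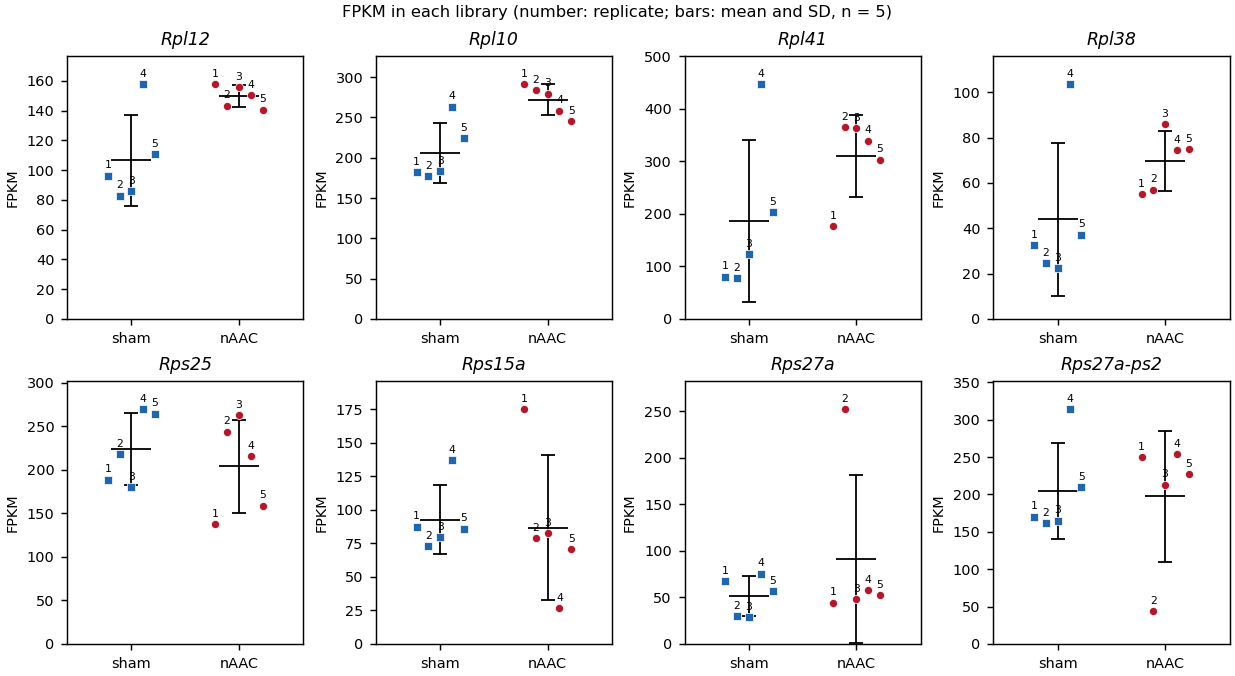
FPKM of 7 members and of the Rps27a pseudogene Rps27a-ps2 in each mouse (number: replicate), with the mean and SD of each group, n = 5. The groups overlap in every panel, sham replicate 4 is the highest sham mouse in Rpl12, Rpl10, Rpl41 and Rpl38, and nAAC replicate 2 has a high value of Rps27a and a low value of Rps27a-ps2.

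Each library was then divided by the geometric mean of its members, which shows how members stood within the set whatever the scaling between libraries. Of the 75 members, 70 had a log2 FC between -0.5 and 0.5, and the range was -0.64 (Rps15a) to 0.66 (Rpl41). On this scale 1 member was called, while 13.3% of all genes were called relative to the ribosomal proteins. Neither end of the range passed the test, with adjusted p values of 0.33 for Rps15a and 0.084 for Rpl41 (limma).

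Rps2, a protein at the mRNA entry of the small subunit, had 355, 312, 288, 316 and 329 on that scale in nAAC replicates 1 to 5 and 466, 380, 373, 380 and 406 in sham replicates 1 to 5. Every nAAC mouse was below every sham mouse, and the same held for Rpl9. In all, 3 members separated on this scale, beside 12.2% of all genes. The log2 FCs were -0.32 for Rps2 and -0.30 for Rpl9, with adjusted p values of 0.13 and 0.16, so neither was called. Without sham replicate 4, 11 members were called relative to the set, among them Rpl38, Rpl41 and Rps28 higher and Rpl5, Rpl9, Rps2, Rps4x, Rps14, Rps25 and Rps27 lower, where 33.9% of all genes were called. Without nAAC replicate 1 the 1 member called was Rps15a, lower, and none was called without nAAC replicate 5 or without sham replicate 2 or 3, when 7, 6 and 4 members had an unadjusted p below 0.05 in limma. All genes were called in 10.5%, 10.1%, 11.7% and 10.1% in these 4 fits.

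The count of members called under other settings stood beside shares of all genes called that moved as well. With upper-quartile scaling 2 members and 25.1% of all genes were called, and without mitochondrial genes in the scaling 9 members and 31.6%. With TPM it was 15 members and 43.9%, with copies added 1 member and 31.6%, and with the replicate block 6 members and 28.9%. With a pseudocount of 0.1 it was 3 members and 31.3%, with a mean FPKM of at least 5 it was 3 and 32.1%, and with no filter it was 0 and 13.8%. Without sham replicate 5 it was 6 members and 35.2%, and leaving out any other single mouse than sham replicates 4 and 5 gave 1 member each and 24.3% to 29.9%. At an adjusted p below 0.01 it was 0 members and 18% of all genes. Relative to the set, 7 members and 27.8% of all genes were called with GC and length trends removed, 2 and 10.4% with the block, 0 and 6.63% with Xist, 0 and 4.7% with the fold threshold, and 0 and 7.53% at 0.01.

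Grouped by their place in the ribosome, the members had at most 1 call in a group, beside the 31.7% of all genes called and their median log2 FC of 0.22. In the P stalk, which recruits the elongation factors, Rpl12 alone of 4 was called. Rplp1, the most abundant member at 627 ± 97.5 in nAAC and 492 ± 264 FPKM in sham mice (n = 5 each, SD), had a log2 FC of 0.48 (adjusted p = 0.21), Rplp2 had 0.37 and Rplp0 0.11. In the RNP of the 5S rRNA, whose free form restrains Mdm2 and so raises p53, Rpl11 had 0.44 and Rpl5 0.069. None of the 9 proteins of the peptide tunnel and its exit was called, with a median of 0.23, among them Rpl35 at 0.48, Rpl22 at 0.38, Rpl31 at 0.33, Rpl4 at 0.32, Rpl19 at 0.23, Rpl26 and Rpl23a at 0.11 and Rpl39 at 0.10. Of 6 at the subunit interface, Rpl10 was called, with Rpl23 at 0.51, Rpl36a at 0.47, Rpl8 at 0.43 and Rpl24 at 0.17 not called, and a median of 0.45.

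In the small subunit the 4 proteins of mRNA entry and decoding had a median of 0.38, with Rps23 at 0.47 and Rps3 at 0.29 between Rps15 and Rps2. The 5 proteins of the mRNA exit and platform had a median of 0.43, with Rpsa at 0.43 and Rps14 at the lower end. The beak proteins Rps10, Rps12 and Rps27a were at 0.42, 0.37 and 0.54. Rps6, the substrate of the S6 kinases that is used as a readout of mTOR, had 0.26 (adjusted p = 0.21), with 239 to 265 FPKM in nAAC and 175 to 300 FPKM in sham mice. No protein of these 4 small subunit groups was called.

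Although a ribosome holds nearly all of these proteins in equal number, their mRNAs did not stand at equal levels. The mean FPKM over the 10 libraries ran from 27.2 for Rpl21 to 559 for Rplp1, a range of 20.5 times, with a median of 185. After Rplp1 the highest were Rps24 at 436, Rplp0 at 400, Rps14 at 388, Rps2 at 366 and Rpl26 at 323. The lowest after Rpl21 were Rps20 at 34.1, Rpl7a at 39.3 and Rps28 at 45.8. Within 2-fold of the median lay 58 members. Over members, the log2 FC had a Spearman correlation of -0.31 with the mean FPKM, -0.097 with mRNA length and 0.22 with GC content, as descriptions over 75 genes that share the same libraries.

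Several of the lowest members had more FPKM listed under near-identical copies than under the gene. A search of each member's mRNA against all other transcripts, at 90% identity or more over at least 50% of the copy and 200 bases, found 1018 copies of 70 members, of which 226 had a mean of at least 1 FPKM. The copies held 18.0% of the FPKM of members and copies together, and in 36 members under 10%. In 9 members, Rpl21, Rpl17, Rpl7a, Rps27a, Rpl30, Rpl35a, Rpl38, Rps20 and Rps28, the copies summed to more than the gene. For Rpl21 they took 91.0% and for Rpl17 83.9% of the total. With copies added the members ran from 80.0 to 573 FPKM, a range of 7.16 times, and 67 lay within 2-fold of the median. FPKM of copies of unequal length do not add exactly, so these sums are approximate, and how reads that match several genes were shared out is not given in the sources used here. For these members the level of the gene alone is uncertain.

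**Figure D5:**
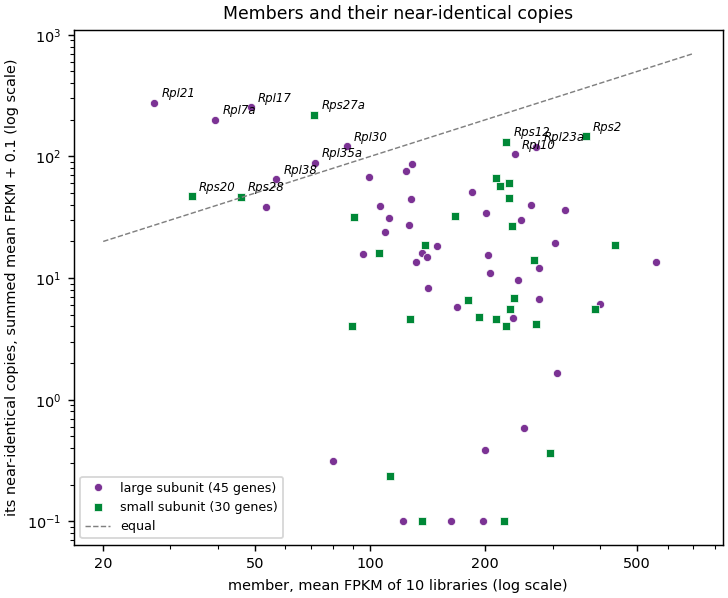
Mean FPKM of each member over the 10 libraries against the summed mean FPKM of its near-identical copies plus 0.1, both on log axes, with the line of equality. The 9 members above the line have copies that sum to more than the gene, and Rpl21 and Rpl17 are among the farthest above it.

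Rps27a, which codes for a fusion of ubiquitin and a protein of the small subunit, is an example. Its mRNA and that of Rps27a-ps2 differ by 1 base over 467 aligned bases, an identity of 99.8%. The 60 bases around it are given, with that base in capitals, from transcript bases 478 to 537 of Rps27a and 346 to 405 of the copy in GENCODE M21 on GRCm38.
Rps27a: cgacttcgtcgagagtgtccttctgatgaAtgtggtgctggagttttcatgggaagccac
Rps27a-ps2: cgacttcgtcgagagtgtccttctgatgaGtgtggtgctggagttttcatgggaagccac
Rps27a (ENSMUSG00000020460, chr11:29545846-29548109, minus strand) was listed at 44.4, 252, 47.8, 58.2 and 52.5 FPKM in nAAC replicates 1 to 5. The copy was listed at 249.7, 44.0, 213, 254 and 227 in the same mice. The levels of the gene and the copy were exchanged in nAAC replicate 2 alone, while in all sham mice the copy was the higher. Alone, Rps27a had a log2 FC of 0.54 (SE 0.44), and with its copies 0.21 (adjusted p = 0.41). Rpl30 in nAAC replicate 5 had 113.5 FPKM for the gene, the highest of the nAAC mice, and 8.88 for Rpl30-ps10, which had 39.3 to 57.8 in the other nAAC mice. Here the gene did not make up for its copies, since gene and copies together came to 138 FPKM in this mouse against 179 to 230 in the other nAAC mice. Its log2 FC of 0.32 was -0.098 with copies added. For Rps15a, whose copies held 4.17% of the total, adding them left the spread as it was, with a log2 FC of -0.25.

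The 4 further components of the ribosome that the naming rule does not take did not pass the test, and with median-ratio scaling 1 of the 4 was above 0. Fau, which codes for a fusion with Rps30, had a log2 FC of 0.58 (adjusted p = 0.15), Rack1, a scaffold on the small subunit, 0.17 and Rps3a1 0.095. Of 8 paralogs that can replace a member, 6 passed the filter and none was called, with Rps27l at 0.33, Rpl7l1 at 0.30, Rpl36al at 0.19, Rps27rt at -0.10, Rps4l at -0.32 and Rpl22l1 at -0.39. Relative to the members, Rps4l was lower in nAAC, with a log2 FC of -0.66 (adjusted p = 0.037, limma).

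Of 23 listed factors that assemble ribosomes, 14 were up-regulated and none down-regulated, beside the 27.1% of all genes called upward, with a median log2 FC of 0.46 and 23 of 23 above 0, and 16 were called without sham replicate 4, where the share of all genes was 33.2%. With median-ratio scaling 18 of 23 were above 0 and 6 called, all upward, beside 13.2% of all genes. With GC and length trends removed 20 were above 0 and 7 called upward, beside 14.9%. Rrp12, which serves the export of the subunits from the nucleus, had 7.37 to 9.18 FPKM in nAAC and 1.11 to 2.10 FPKM in sham mice, with a log2 FC of 1.88 (adjusted p = 3.1e-07). Bop1, of the complex that matures the large subunit rRNA, had 0.95, and Bysl, of small subunit maturation, 0.82 (adjusted p = 0.0041 and 0.0034). Of 13 genes for the transcription of rRNA and its regulators 2 were called, Myc at 0.91 and Tcof1 at 0.36, and of 8 proteins of the snoRNPs that modify rRNA 2 were called, Nhp2 at 0.97 and Nop58 at 0.44, both counts near or below the 27.1% of all genes. With median-ratio scaling 1 of the 13 was called upward, and of the 8 snoRNP proteins 1 upward and 1 downward. With GC and length trends removed 1 of the 13 was called upward and 2 downward, with a median of -0.024. Tcof1 then had a log2 FC of -0.10, and 1 of the 8 snoRNP proteins was called, upward. Relative to the members, 3 of the 23 assembly factors were called higher, beside 6.33% of all genes. Myc alone of the 13 and Nhp2 alone of the 8 were also called higher on that scale.

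Other mRNAs with a TOP motif and their regulators were called about as often as all genes. Of 14 TOP mRNAs outside the ribosome 4 rose, beside the 27.1% of all genes, among them the elongation factor genes Eef1a1 at 0.74 (adjusted p = 0.0013) and Eef1g at 0.49 and the initiation factor gene Eif3h at 0.59, with a median of 0.13, below the 0.22 of all genes. With median-ratio scaling 1 of the 14 was called upward, beside 13.2% of all genes, and 1 downward, with a median of -0.14. Of 11 regulators 4 rose, beside the 27.1% of all genes (1 with median-ratio scaling, beside 13.2%). The 4 were Rptor at 0.55, Rps6kb2 at 0.50, Larp1 at 0.49 and Mtor at 0.45. By comparison, 4 of 78 genes for mitochondrial ribosomal proteins rose and 1 fell, with a median of 0.12. Without sham replicate 4, 22 rose and 1 fell, beside the 33.2% of all genes called upward in that fit. With GC and length trends removed, 0 of the 11 regulators were called upward and 1 downward. Of the 14 TOP mRNAs 2 were called upward and 2 downward in that setting, with a median of -0.060. The shares of all genes there were 14.9% upward and 16.1% downward.

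Cell type markers were at hand for the same mice. Fibroblast markers summed to 390 to 639 FPKM in nAAC and 338 to 357 FPKM in sham mice, without overlap, with 4 of 5 called up-regulated, beside 27.1% of all genes. Most of each sum was Dcn, at 309 to 498 FPKM in nAAC and 288 to 304 FPKM in sham mice. Of 4 mural markers 3 were called up-regulated, and of 4 endothelial markers 1. Of 6 cardiomyocyte markers 1 was called up-regulated and 2 down-regulated, beside 4.6% of all genes called downward. With median-ratio scaling 2 of the fibroblast, 1 of the mural and 0 of the endothelial markers were called upward, beside 13.2% of all genes. In that fit 3 of the cardiomyocyte markers were called, all downward, beside 12.1% of all genes called downward. With GC and length trends removed 4 cardiomyocyte markers were called, all downward, beside 16.1% of all genes called downward. The markers of cardiomyocytes, endothelial cells, macrophages and leukocytes, mural and erythroid cells overlapped between groups in their sums, and those of T cells and of cycling cells stayed at or below 0.579 and 4.12 FPKM in sum. Atrial markers summed to 6321 to 11730 in nAAC and 94.4 to 199 in sham mice, and in the nAAC mice nearly all of it was Nppa, which the loaded ventricle also makes. Myl7 and Myl4, light chains of atrial myosin, were at 54.0 and 71.1 FPKM in nAAC replicate 2 and at 79.8 and 128 in replicate 3. They were between 0.65 and 1.61 in nAAC replicates 1 and 5, and in sham mice highest in replicate 1, at 22.4 and 17.8. No listed marker was at 0 in all libraries. Their part in the level of the members was not tested.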

How the data were processed

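LV RNA of 5 nAAC and 5 sham mice was compared, with groups and replicate numbers taken from the labels. Libraries were made from total RNA with the NEBNext Ultra kit. The authors deposited 1 table per mouse on mm10 with read coverage, FPKM and TPM per gene; aligner, annotation and use of strand are not given in the sources used here. Coordinates matched GENCODE M21 (GRCm38), given here as annotation, in 54816 of 55141 shared genes. Counts cannot be recovered. The ratio of coverage to FPKM found more often than any other (in 15.0% to 16.5% of genes above 1 FPKM per library) put depth at 4.86 to 6.82 gigabases as an estimate. Errors rest on differences among mice.

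Rows sharing a gene ID (12 to 21 per table) were summed. The members and the lists were chosen with earlier results of these data known. limma 3.58.1 (R 4.3.3) with an empirical Bayes trend was run on log2(FPKM + 1) for 11867 genes, with Benjamini-Hochberg adjustment over all of them. The fit was tested on simulated data in which genes varied independently. Those data held no shifts shared by a library, so the simulation does not cover such shifts. A fold change on the log2(FPKM + 1) scale understates changes of low genes. Genes were named by a rule, which took per subunit the 3 highest and 3 lowest log2 FCs, the 3 highest and 2 lowest levels, members called relative to the set, members of structural groups, other components, paralogs, and up to 3 called genes per list; other names, such as Rpl30, Rps4x and Mtor, were chosen after their values were seen. Copies were found with blastn 2.17.0. Alternatives were other scalings, TPM, removal of GC and length trends by loess, a pseudocount of 0.1 and filters. Further ones were the replicate block, Xist as a covariate, other thresholds, and each mouse left out. The sum with copies was added after seeing the data, and the split at 1 FPKM of Xist was not planned. Figures used Python 3.11.15, pandas 2.3.3 and matplotlib 3.10.9. Some genes enter the counts and sums but are not reported here singly.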

Additional observations from a re-analysis of the deposited data

Results flagged for a closer look

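Within groups of 5 mice, 142 sets of values were examined with Dixon's ratio of the gap at one end to the whole range, on the log2(FPKM + 1) scale for genes, and 12 exceeded 0.71. Chance alone gives about 1 in 20, here 7.1, so the number of such sets has little weight. Sham replicate 4 was far above the other sham mice in Rpl26 (ratio 0.747), Rps15a (0.713), Rpsa (0.739), Rps6 (0.720), the paralogs Rpl36al (0.761) and Rps27l (0.772), and far below them in Larp1 (0.711). In nAAC mice, replicate 2 was far above the others in Rps27a (0.846) and Rps27 (0.775), and replicate 1 far below in Rpl41 (0.745) and Rps3a1 (0.753). Sham replicate 5 was far above the other sham mice in Tcof1 (0.745).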

How the results depend on the processing

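The number of members called was 3 with a pseudocount of 0.1 and with a mean FPKM of at least 5, 2 with upper-quartile scaling (Rps27 among them, down), 1 with median-ratio scaling and 1 with copies added. It was 9 when scaled without mitochondrial genes, 15 with TPM and 7 with GC and length trends removed. It was 0 with no filter (8 at an unadjusted p below 0.05, limma), 0 with Xist as a covariate (2 at an unadjusted p below 0.05), 0 at an adjusted p below 0.01 and 0 with the added fold threshold (13 at an unadjusted p below 0.05). Leaving out 1 mouse gave 1 to 43. With the replicate block it was 6 (Rpl12, Rpl36a, Rpl38, Rpl41 and Rps28 among them), and the deviations of equal numbers correlated from -0.32 to 0.19. They were not compared with those of unequal numbers, so they cannot show whether the numbers pair the mice. Relative to the set, 1 member was called in most settings, 7 with trends removed, 2 with the replicate block, 0 with Xist, at 0.01 or with the fold threshold (2, 10 and 10 at an unadjusted p below 0.05), and 0 to 11 with 1 mouse left out. The median log2 FC of members ran from 0.091 to 0.54 and the ratio of summed FPKM from 0.99 to 1.39 over all settings. These lay within 1 SD between mice of the values reported, but the ratio changed direction. An SD between mice is wider than the error of a difference between group means.

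Estimates changed sign with the setting, and not only those near 0. In the fit reported above Tcof1 was called at 0.36, and Rps6 had 0.26 and Rpl19 0.23. With median-ratio scaling the log2 FC was -0.24 for Rpl17, -0.23 for Rpl9, -0.21 for Rpl5, -0.17 for Rpl26, -0.17 for Rplp0, -0.25 for Rps2, -0.25 for Rps14, -0.18 for Rps24, -0.18 for Rpl39, -0.047 for Rpl19, -0.17 for Rpl23a, -0.11 for Rpl24, -0.017 for Rps6, -0.18 for Rps3a1, -0.11 for Rack1 and -0.086 for Rpl36al. In the same order it was -0.22, -0.21, -0.19, -0.15, -0.15, -0.24, -0.23, -0.16, -0.16, -0.031, -0.16, -0.097, -0.0017, -0.17, -0.090 and -0.071 with upper-quartile scaling. With GC and length trends removed it was -0.080 for Rpl17, -0.15 for Rpl9, -0.0028 for Rpl5, -0.20 for Rpl26, -0.13 for Rplp0, -0.27 for Rps2, -0.27 for Rps14, -0.018 for Rps24, -0.023 for Rpl39, -0.040 for Rpl19, -0.036 for Rpl23a, -0.0079 for Rpl24, -0.032 for Rps3a1, -0.022 for Rack1 and -0.10 for Tcof1. With Xist as a covariate it was -0.17 for Rpl17, -0.047 for Rpl9, -0.0016 for Rpl26, -0.092 for Rplp0, -0.15 for Rps2, -0.11 for Rps14, -0.0094 for Rack1 and 0.30 for Rps27rt. TPM gave 0.011 for Rps25, 0.074 for Rps27 and 0.068 for Rps27rt. With 1 mouse left out, Rpl17 ran from -0.057 to 0.14, Rpl9 from -0.039 to 0.21, Rpl5 from -0.0042 to 0.18, Rps15a from -0.60 to 0.067, Rps2 from -0.10 to 0.20, Rps14 from -0.049 to 0.18, Rps24 from -0.056 to 0.28, Rpl23a from -0.018 to 0.30 and Rps27rt from -0.31 to 0.057. The cause of these sign changes was not tested. Without fragment counts, no counting error per library could be given.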
